A study of Mus musculus with 15 samples.

Results

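The genes described here encode the nuclear subunits of respiratory complexes II, III, IV and V and the electron carriers cytochrome c1 and cytochrome c, in the trigeminal ganglion (TG) of mice after corneal injury. Their rows were taken from the deposited counts table by symbol: Sdha to Sdhd, every protein-coding symbol starting with Uqcr, Cox4 to Cox8 or Atp5, and Cyc1 and Cycs. This gave 50 of 55573 rows, 4 for complex II, 9 for complex III with Cyc1, 18 for complex IV, 18 for complex V and 1 for cytochrome c. The rule used symbols and no measured value, but it was set with earlier results of these data known. A filter on low counts kept 43 of the 50 rows for testing, and the other 7 are described by their counts.

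Complex II oxidizes succinate in the citrate cycle, complex III passes electrons from ubiquinol to cytochrome c, complex IV hands them to oxygen, and complex V uses the resulting proton gradient to make ATP. Except for complex II, each also holds subunits made from mitochondrial DNA, so that its assembly draws on both genomes. Sensory neurons have a high demand for ATP along their axons, and several subunits of complex IV exist in alternative forms, with Cox6a2, Cox7a1 and Cox8b as the forms of heart and skeletal muscle.

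The samples were right TG of 10-week-old male CD1 mice whose right cornea had been wounded inside a 2 mm trephine mark. All 3 groups carried this injury, so none was uninjured. From then on the eye received vehicle, resolvin D6 (labelled RvD6-standard, here RvD6) or its stereoisomer (labelled RvD6-isomer, here RvD6si) 3 times daily until the ganglia were collected on day 12, with 5 samples in each group. The strength of the lipid drops is not given in the sources used here, so equal dosing of both lipids cannot be shown. Vehicle samples carry the numbers 1 to 5, RvD6 samples 6 to 10 and RvD6si samples 11 to 15.

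Between 4125962 and 9903396 reads were counted per sample. All 15 sensory neuron genes listed as markers were measured, but the samples were not pure ganglion: the summed level of 15 skeletal muscle genes ran from 142 to 3660 counts-per-million (CPM) in RvD6 samples, against 61.5 to 230 in vehicle and 49.0 to 92.9 in RvD6si samples. Erythroid genes summed to 5720 to 10513 CPM with RvD6 and to 2379 to 5052 CPM with vehicle. With RvD6si they lay between 935 and 11959 CPM, the highest of these in sample 15. The summed level of the neuron genes was 15912 to 18327 CPM in vehicle, 9316 to 16774 in RvD6 and 14520 to 18660 in RvD6si. The 4 satellite glia genes summed to 6529 to 7909 CPM with vehicle and were lower in every lipid sample, at 4721 to 6413 with RvD6 and 4318 to 6302 with RvD6si. Bone marrow genes summed to 87.6 to 481 CPM with vehicle, 578 to 1842 with RvD6 and 43.8 to 1728 with RvD6si, where sample 15 was again the highest. Pituitary genes summed to 8.66 to 3744 CPM with vehicle, 224 to 2299 with RvD6 and 19.8 to 657 with RvD6si. The highest of these was in vehicle sample 3. Their part in the values below was not tested, except where a value without a sample or with a muscle score is given.

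The promoters of 4 members are shown because these genes had some of the lowest values relative to vehicle among complex IV, complex III and cytochrome c, and because nuclear respiratory genes are known to share binding elements for NRF1 and for the ETS factor GABPA near their start sites. Each line gives the 250 bases before the RefSeq start site on GRCm38.p6, 5′ to 3′ on the strand of the gene, with a match to the ETS core CCGGAAG or to the centre of the NRF1 element CGCATGCG, on either strand, in capitals.
Cox6b1: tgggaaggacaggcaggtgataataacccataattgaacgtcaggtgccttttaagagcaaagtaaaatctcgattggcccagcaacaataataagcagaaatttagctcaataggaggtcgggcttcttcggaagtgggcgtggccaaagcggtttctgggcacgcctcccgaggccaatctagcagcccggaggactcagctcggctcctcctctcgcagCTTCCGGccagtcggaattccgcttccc
Cox5b: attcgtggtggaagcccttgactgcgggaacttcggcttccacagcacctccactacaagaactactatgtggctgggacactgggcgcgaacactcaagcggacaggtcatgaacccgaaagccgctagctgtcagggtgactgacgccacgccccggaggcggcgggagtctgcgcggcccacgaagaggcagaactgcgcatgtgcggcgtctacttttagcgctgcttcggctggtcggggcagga
Uqcrh: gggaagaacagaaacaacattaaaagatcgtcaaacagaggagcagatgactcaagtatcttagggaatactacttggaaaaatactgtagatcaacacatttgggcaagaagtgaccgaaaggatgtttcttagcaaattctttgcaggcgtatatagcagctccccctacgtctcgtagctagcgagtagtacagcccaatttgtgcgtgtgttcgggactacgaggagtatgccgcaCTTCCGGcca
Cycs: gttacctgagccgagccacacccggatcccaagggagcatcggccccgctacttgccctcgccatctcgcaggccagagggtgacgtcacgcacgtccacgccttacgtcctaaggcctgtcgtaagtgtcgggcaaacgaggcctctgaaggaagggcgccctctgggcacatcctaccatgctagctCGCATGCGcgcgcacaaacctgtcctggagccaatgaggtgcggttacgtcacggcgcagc
These windows are chr7:30626115-30626364 on the minus strand for Cox6b1, chr1:36691237-36691486 on the plus strand for Cox5b, chr4:116075071-116075320 on the minus strand for Uqcrh and chr6:50566570-50566819 on the minus strand for Cycs. The first capital letter lies 28 bases before the start in Cox6b1, 10 bases before it in Uqcrh and 61 bases before it in Cycs. No such letters occur in the window of Cox5b.

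Of the 49 gene symbols among the members, 37 had a promoter in the RefSeq table of 300-base windows (250 bases before the start and 50 after it). The NRF1 letters were found in 8 of them (21.6%), against 2.07% of 27025 genes with a window. The genes are Cycs, Cox6a1, Uqcrc1, Uqcr11, Atp5g2, Atp5j, Atp5k and Atp5l. The ETS letters were found in 12 (32.4%), against 9.93% of all genes, and a YY1 element (AAGATGGCG) in 2 (5.41%), against 1.64%. A match of letters is a description of the window and not a bound site.

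In vehicle samples the members differed widely in level. Scaled to exonic length as transcripts-per-million (TPM, mean ± SD, n = 5), the catalytic beta subunit of ATP synthase, Atp5b, was highest at 1453 ± 109.8. It was followed by the regulatory complex IV subunit Cox4i1 at 1213 ± 62 and by the ATP synthase alpha subunit Atp5a1 at 922 ± 91.8, and the last of these did not differ beyond its spread from Cox8a, a small subunit of complex IV, at 899 ± 91.4. Cox6b1, a subunit on the outer face of complex IV, stood at 769 ± 92.4 TPM and Cox5b, a zinc-binding subunit on its inner face, at 175 ± 18.2 TPM. The Rieske iron-sulfur protein Uqcrfs1 was the highest member of complex III at 597 ± 45.9 TPM. In complex II the flavoprotein Sdha (274 ± 19.9 TPM) and the iron-sulfur subunit Sdhb (261 ± 23.1 TPM) lay well above the membrane anchors Sdhd (68.4 ± 12.5 TPM) and Sdhc (59.2 ± 3.45 TPM). The lowest tested members were Cox7a1 at 4.96 ± 1.44 and Atp5l, the g subunit of ATP synthase, at 7.42 ± 1.62 TPM, although the annotated exons of Atp5l, at 6443 bases, are the longest of all members and draw its scaled value down.

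With RvD6si, most of these genes had lower estimates than with vehicle, edgeR called none of them after correction for all genes and DESeq2 called 9. The log2 fold change was below 0 for 39 of 43 members, with a median of -0.32, while the median over all 16567 genes tested was 0.02. By the quasi-likelihood test of edgeR, 0 of 43 members had a Benjamini-Hochberg adjusted p below 0.05, where 0.67% of all genes did. An unadjusted p below 0.05 was found for 18 members in the lower direction, or 41.9%, where 7.3% of all genes had it, and for 2 members in the higher direction, where 8.69% of all genes did. All 5 RvD6si samples lay below all 5 vehicle samples for 9 members, where this held for 2.46% of all genes, and above them for 1, against 2.45%. DESeq2, the tool the study used, called 9 of the 42 members to which it gave an adjusted p, and 8.13% of all such genes. They were Cox6b1, Cox5b, Uqcrh, Cycs, Atp5c1, Atp5g1, Atp5j and Atp5o, which were lower, and Atp5s, which was higher. The members are highly expressed relative to all genes tested (median log2 CPM 7.02 against 4.04), and their exons are shorter (median 1831 against 3968 bases). After the smooth trend of each library on gene length was taken out, the median of the members was -0.21 and edgeR called 1 of them, Cycs. DESeq2 then still called 9 members, but no longer Cox5b, Uqcrh and Atp5o, and in their place Atp5f1, Atp5l and Sdhd. The shares of all genes called after this removal are not given here. In these bulk samples, fewer cells of a type with high levels and less RNA per cell cannot be told apart.

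**Figure D1:**
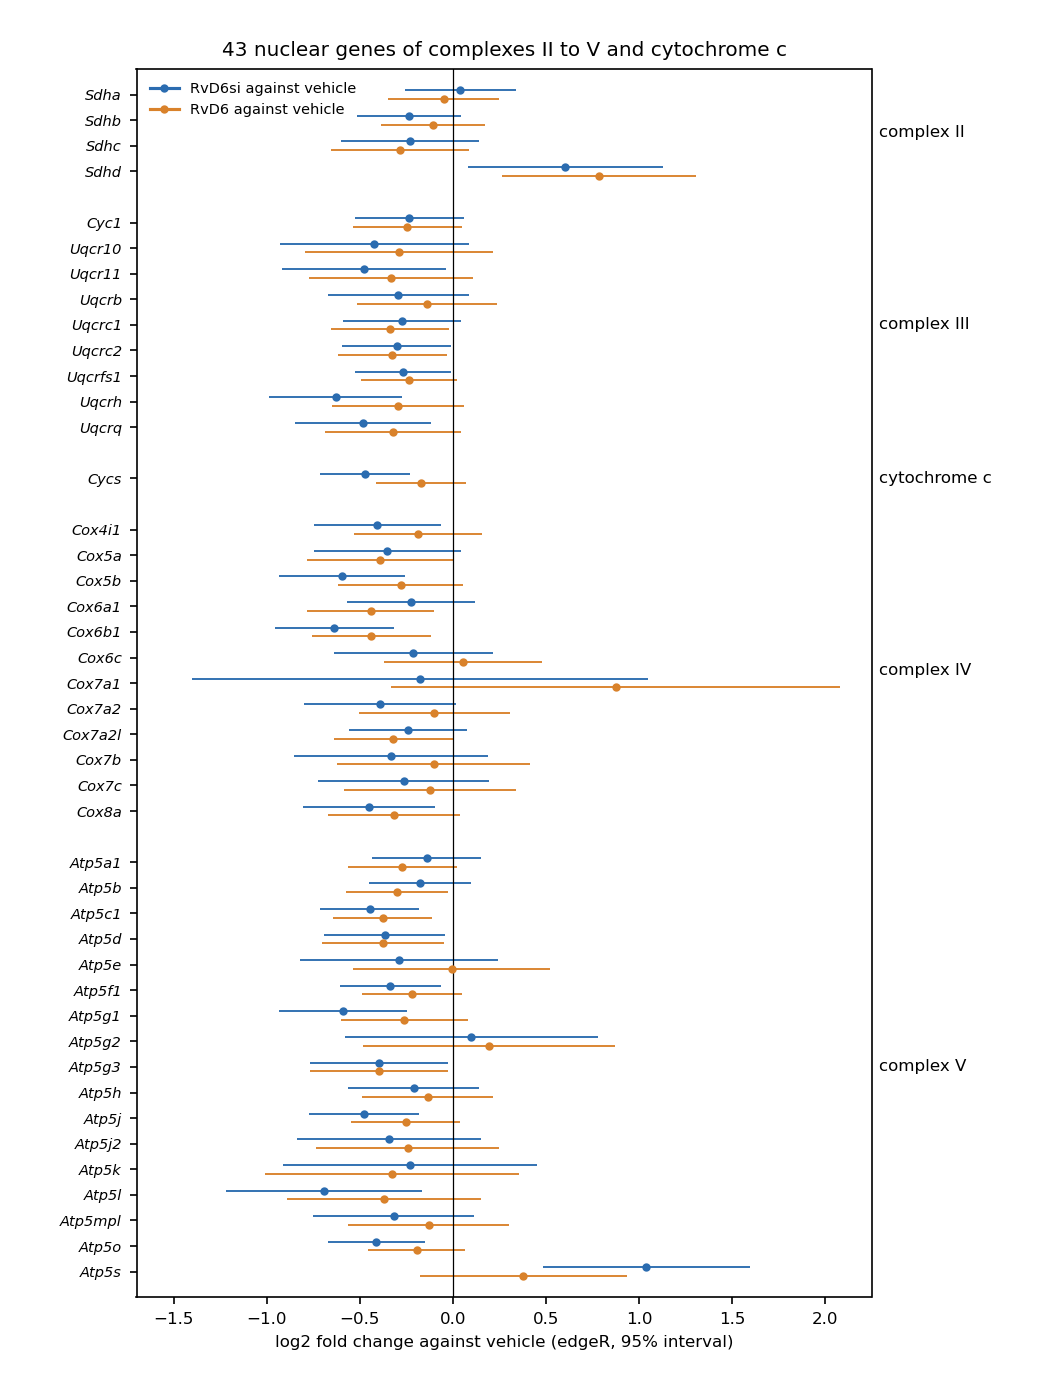
Log2 fold change against vehicle (x axis) for each of the 43 tested members, grouped by complex on the y axis, with points for the edgeR estimate and bars for its 95% interval, for RvD6si and RvD6 (n = 5 per group). Most points lie left of 0 in both comparisons, with Sdhd and Atp5s to the right, and the estimate for RvD6si reaches 1.04 for Atp5s.

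In complex IV, Cox6b1 and Cox5b were lower in every RvD6si sample than in any vehicle sample. Cox6b1 (ENSMUSG00000036751, chr7:30616861-30626151 on GRCm38) had 269, 213, 223, 223 and 242 CPM in the vehicle samples, 199, 169, 181, 159 and 154 in the RvD6 samples and 109, 197, 128, 138 and 181 in the RvD6si samples. No sample of either lipid reached the lowest vehicle sample, and the lowest value was that of RvD6si sample 11. Its log2 fold change with RvD6si was -0.64 ± 0.15 (SE, n = 5 per group, edgeR adjusted p = 0.0611, DESeq2 adjusted p = 0.00345). Over the 15 fits that each omit 1 sample, the edgeR adjusted p ran from 0.0258 (without RvD6si sample 12) to 0.162, and it passed the threshold in 2 of them. With the length trend removed the log2 fold change was -0.40 (adjusted p = 0.140 in edgeR and 0.0322 in DESeq2).

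Cox5b (ENSMUSG00000061518, chr1:36691449-36693681) had 131, 115, 133, 112 and 107 CPM with vehicle, 104, 71.1, 128, 91.3 and 99.3 with RvD6 and 60, 96.1, 83.1, 71.7 and 85.6 with RvD6si. The RvD6si samples were all lower than the vehicle samples, while the RvD6 samples overlapped both groups. The log2 fold change with RvD6si was -0.59 ± 0.16 (edgeR adjusted p = 0.0826, DESeq2 adjusted p = 0.0102). With the length trend removed it was -0.42, and the adjusted p was 0.193 in edgeR and 0.0752 in DESeq2. Of its 75-base words 7.42% also occur in transcripts of the annotated coding gene Gm11273.

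The other general subunits of complex IV were less uniform. Cox4i1 had 844, 749.6, 838, 809 and 806 CPM with vehicle and 395, 819, 552, 537 and 751 with RvD6si, so that samples 12 and 15 lay at or near the vehicle level and samples 11, 13 and 14 well below it. Its log2 fold change was -0.41 ± 0.16 (edgeR adjusted p = 0.226). Cox6a1, the general form of a regulatory subunit, had 124, 264, 156, 160.1 and 200.3 CPM with RvD6si, where sample 12 was above every vehicle sample (201, 188, 229, 212 and 228). Its estimate for RvD6si was -0.22 ± 0.16 (edgeR adjusted p = 0.533), and it turned to 0.014 when the length trend was removed. Over the 12 tested members of complex IV, all 12 estimates for RvD6si were below 0, with a median of -0.34. Of these, 4 had an unadjusted p below 0.05 by edgeR, where 7.3% of all genes had it in the lower direction.

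In complex III all 9 members had estimates below 0 with RvD6si, with a median of -0.30. An unadjusted p below 0.05 by edgeR was found for 5 of the 9, where 7.3% of all genes had it in the lower direction. The hinge protein Uqcrh (chr4:116066965-116075071), which sits beside cytochrome c1 and helps it pass electrons to cytochrome c, had 202, 184, 218, 207 and 186 CPM with vehicle, 199, 139, 162, 153 and 161 with RvD6 and 95.4, 159, 103, 107 and 181 with RvD6si. RvD6si sample 15 lay just below the lowest vehicle sample and samples 11, 13 and 14 far below it. The log2 fold change was -0.63 ± 0.17 (edgeR adjusted p = 0.0807, DESeq2 adjusted p = 0.0111). With 1 sample left out the edgeR adjusted p ran from 0.0422 (without sample 15) to 0.221, passing in 1 of 15 fits. With the length trend removed the estimate was -0.43, with an adjusted p of 0.192 in edgeR and 0.0761 in DESeq2. Cyc1, which encodes cytochrome c1 itself, had the estimate nearest to 0 in the complex, -0.23 ± 0.14 (edgeR adjusted p = 0.433). The Rieske protein Uqcrfs1 stood at -0.27 ± 0.12 (adjusted p = 0.291, edgeR).

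Cytochrome c, encoded by Cycs (chr6:50562563-50566538), is the soluble carrier between complexes III and IV and, once released from mitochondria, a trigger of apoptosis. It had 118, 137, 144, 134 and 131 CPM with vehicle, 123, 107, 131, 116 and 113 with RvD6 and 103, 83, 101, 102 and 91.3 with RvD6si. The RvD6si samples lay close together and below every sample of both other groups, a separation from RvD6 that 1.1% of all genes showed in that direction and that no other of the 43 tested members showed. The log2 fold change against vehicle was -0.47 ± 0.12 (edgeR adjusted p = 0.0637, DESeq2 adjusted p = 0.000630). The edgeR adjusted p was 0.0368 with the length trend removed and 0.0342 with the trend on GC content removed. With 1 sample left out it ran from 0.0565 to 0.168, passing in 0 of 15 fits. Of its 75-base words, 23.9% occur in other transcripts, most of them in Gm10053, so that part of its reads could not be counted.

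**Figure D2:**
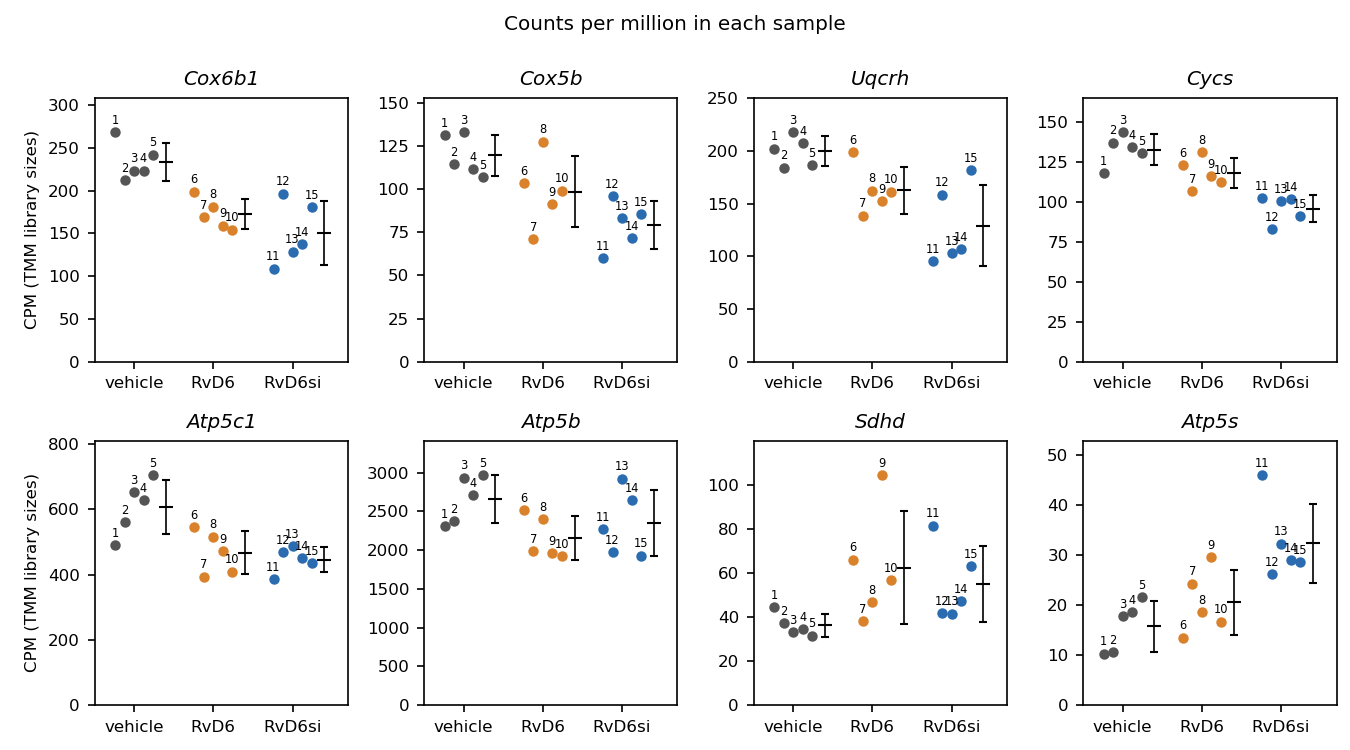
CPM (y axis, from 0) of 8 members in each sample (numbered points) by treatment, with the group mean and SD (bars, n = 5). For Cox6b1, Cox5b, Uqcrh, Cycs and Atp5c1 the RvD6si points sit under the lowest vehicle point and for Atp5s they sit over the highest, while Atp5b and Sdhd overlap.

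Complex V showed the widest range of values. Among its 17 tested members 15 were below 0 with RvD6si, with a median of -0.34. Of the lower members 8 had an unadjusted p below 0.05 by edgeR, where 7.3% of all genes had it in that direction. The gamma subunit Atp5c1, the rotating shaft of the catalytic head, had 490.3, 561, 652, 629 and 705 CPM with vehicle, 547, 394, 516, 472 and 409 with RvD6 and 385, 469, 487, 452 and 435 with RvD6si. No RvD6si sample reached the lowest vehicle sample, and the gap to it was small. Its log2 fold change was -0.45 ± 0.13 (edgeR adjusted p = 0.0953, DESeq2 adjusted p = 0.0130), and -0.29 with the length trend removed. Atp5b, the partner of Atp5c1 in the head, overlapped between groups, with 2307, 2372, 2938, 2709 and 2967 CPM with vehicle and 2273, 1976, 2925, 2649 and 1931 with RvD6si (-0.18 ± 0.13, edgeR adjusted p = 0.541).

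The c subunit, whose ring turns in the membrane, is encoded by Atp5g1, Atp5g2 and Atp5g3, which differ in their import sequence. Atp5g3 made up 92.1 to 94.0% of their summed TPM in vehicle samples and 91.9 to 94.7% in RvD6si samples. Of the 75-base words, 7.29% of Atp5g1 and 35.8% of Atp5g2 also occur in other genes, and 0% of Atp5g3. Part of the reads of Atp5g1 and Atp5g2 could thus be left uncounted or be counted on a copy, which was not tested. Either may raise the share of Atp5g3. Gm10175, the pseudogene that shares most with Atp5g2, averaged 20.8 CPM in vehicle samples, against 6.44 for Atp5g2. Gm10039, the pseudogene that shares most with Atp5g1, averaged 151 CPM in vehicle and 114 in RvD6si samples (log2 fold change -0.41 ± 0.19, edgeR adjusted p = 0.312). Atp5g1 had 53.9, 56.3, 51.6, 58.1 and 57.2 CPM with vehicle and 26.5, 38.6, 36.1, 37.7 and 45.1 with RvD6si, without overlap, and a log2 fold change of -0.59 ± 0.16 (edgeR adjusted p = 0.0873, DESeq2 adjusted p = 0.00867). Coupling factor 6, Atp5j, and the stalk subunit Atp5o stood at -0.48 ± 0.14 and -0.41 ± 0.12 on the log2 scale. Their edgeR adjusted p-values were 0.103 and 0.107, and in DESeq2 they were 0.0161 and 0.0140. With the length trend removed Atp5o stood at -0.26, and its DESeq2 adjusted p was 0.121. The exons of Atp5o overlap other genes over 47.9% of their length, so its count covers only part of the gene. Atp5l had the lowest estimate of the complex at -0.69 ± 0.25 (edgeR adjusted p = 0.179).

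Atp5s, which encodes coupling factor B, an accessory protein and no core subunit, was the one member above every vehicle sample. It had 10.3, 10.6, 17.8, 18.6 and 21.6 CPM with vehicle, 13.5, 24.3, 18.5, 29.6 and 16.7 with RvD6 and 46, 26.2, 32.3, 29 and 28.5 with RvD6si. Each RvD6si sample was higher than each vehicle sample, and sample 11, which was the lowest of the group for most other members, was the highest. The log2 fold change was 1.04 ± 0.27 (edgeR adjusted p = 0.0688, DESeq2 adjusted p = 0.00579). Over all alternatives run, its estimate ranged from 0.88 to 1.21 and its adjusted p from 0.00159 to 0.203.

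Complex II, the only complex without a mitochondrially encoded subunit, had a median log2 fold change of -0.09 over its 4 members. Sdha had 417, 473, 573, 488 and 488 CPM with vehicle and 548, 383, 625, 541 and 409 with RvD6si, overlapping throughout, with an estimate of 0.04 ± 0.14 (95% interval -0.26 to 0.34, edgeR adjusted p = 0.927). Sdhb and Sdhc had estimates of -0.23 ± 0.13 and -0.23 ± 0.18 (edgeR adjusted p = 0.403 and 0.564). Sdhd had 44.3, 37.3, 33, 34.4 and 31.4 CPM with vehicle, 66, 37.9, 46.8, 104 and 56.5 with RvD6 and 81.3, 41.8, 41.5, 47.3 and 63 with RvD6si. Its highest values were those of RvD6 sample 9 and RvD6si sample 11, and both lipid groups overlapped the vehicle group. The log2 fold change was 0.60 ± 0.25 with RvD6si (edgeR adjusted p = 0.236) and 0.79 ± 0.25 with RvD6 (adjusted p = 0.191). The latter was 0.52 without RvD6 sample 9 and 0.30 with a skeletal muscle score in the fit.

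Summed over the members, the complexes differed in how far the lipid samples stood from vehicle. Complex IV came to 2490, 2164, 2484, 2465 and 2361 CPM with vehicle, 2337, 1744, 2103, 1911 and 2043 with RvD6 and 1321, 2443, 1595, 1571 and 2202 with RvD6si. RvD6si samples 11, 13 and 14 held 55.2 to 66.7% of the vehicle mean, while samples 12 and 15 held 102 and 92.0% and lay among the vehicle samples. Complex III summed to 2148, 2249, 2403, 2384 and 2486 CPM with vehicle and 1599, 1717, 2043, 2022 and 1981 with RvD6si, without overlap. Complex V summed to 6225, 6343, 7433, 6845 and 7517 and 5096, 5615, 6560, 6140 and 5467 CPM, and Atp5b alone made up a large share. Here the groups overlapped: RvD6si sample 13 lay within the vehicle range and sample 14 just below it. Complex II summed to 752, 819, 971, 857 and 896 and 866, 753, 947, 869 and 772 CPM and overlapped in full. The share of all counts that fell on the members was 1.16 to 1.28% with vehicle, 0.937 to 1.17% with RvD6 and 0.929 to 1.13% with RvD6si.

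**Figure D3:**
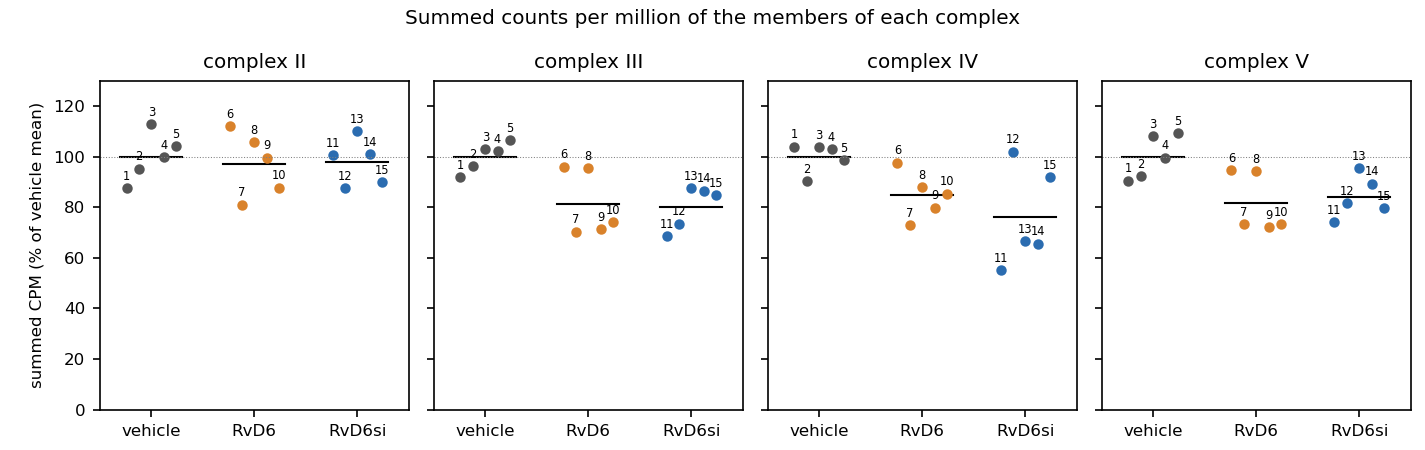
Summed CPM of the members of complexes II, III, IV and V in each sample (numbered points) as a percentage of the vehicle mean (y axis, from 0), by treatment, with a line at each group mean. For complex IV, RvD6si samples 12 and 15 lie at 102 and 92.0% and the other 3 at 55.2 to 66.7%, while for complex II the groups overlap.

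The RvD6si samples were thus not alike in these genes. The median over the 43 members of log2(CPM) minus the vehicle mean was -0.77, -0.02, -0.51, -0.45 and -0.12 in samples 11 to 15. In sample 12, 23 of 43 members were below the vehicle mean and in sample 15, 27 were, against 37 or 38 in the other 3 samples. Vehicle samples themselves ranged from 11 to 36 members below their own mean. The members with exons of at most 1831 bases, many of them small subunits, had medians of -0.91, 0.11, -0.68, -0.62 and -0.02 in samples 11 to 15, and the longer members had -0.64, -0.25, -0.31, -0.39 and -0.23. Samples 11, 13 and 14 were thus lower in the shorter members and samples 12 and 15 in the longer ones. Across the 43 members, which share each library, Spearman's rho with exonic length was 0.25, -0.45, 0.53, 0.30 and -0.45 in the same order, and over the difference between RvD6si and vehicle as a whole it was 0.04. Single vehicle samples also reached -0.42 and 0.43 against their own mean. Over all genes tested that difference had a rho with length of 0.29. The part of library preparation in these values was not tested.

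**Figure D4:**
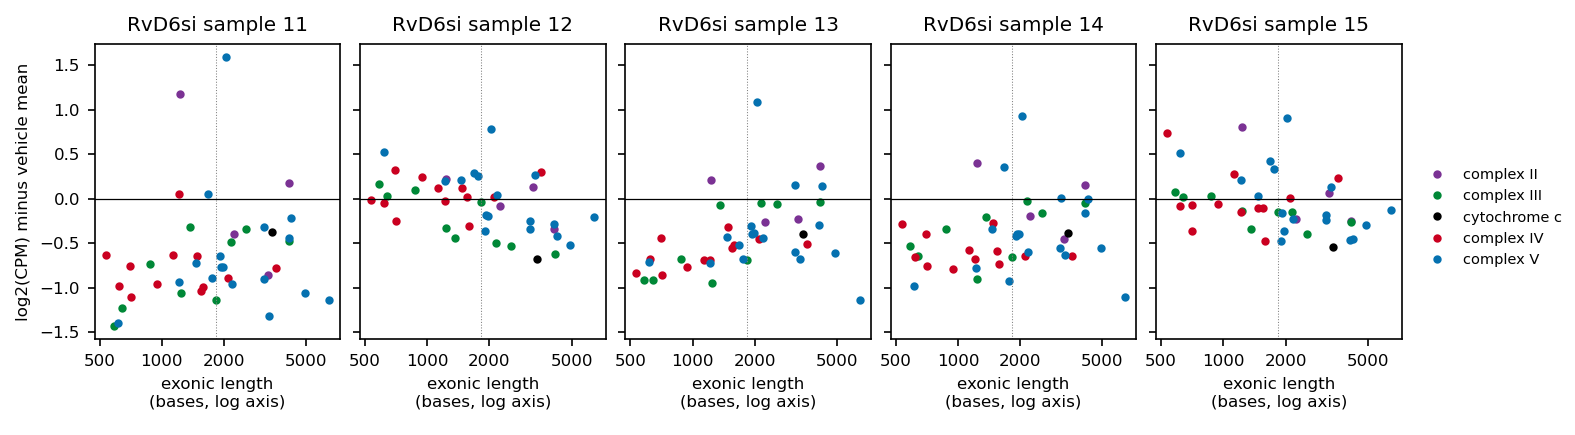
Log2(CPM) minus the vehicle mean (y axis) against exonic length in bases (log x axis) for the 43 tested members, coloured by complex, in each RvD6si sample; the dotted line is the median length of 1831 bases. Samples 11, 13 and 14 have most short members far below 0, and samples 12 and 15 have them around 0.

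With RvD6, 38 of the 43 members had an estimate below 0 and the median was -0.25, against 0.02 over all genes. By edgeR 0 members were called, and 0% of all genes were. An unadjusted p below 0.05 was found for 9 members in the lower direction, where 5.99% of all genes had it, and for 1 in the higher direction, Sdhd, where 7.63% of all genes did. All 5 RvD6 samples lay below all vehicle samples for Cox6b1, Cox6a1, Uqcrq and Atp5j, 4 members, where 1.62% of all genes did so. They lay above them for 0 members, where 2.15% of all genes did. Cox6a1 had 173, 138, 148, 158 and 162 CPM with RvD6, and its log2 fold change was -0.44 ± 0.16 (edgeR adjusted p = 0.259). For Cox6b1 it was -0.44 ± 0.15 (adjusted p = 0.223, edgeR) and for Atp5c1 -0.38 ± 0.13 (adjusted p = 0.212). DESeq2 called 1 member, the muscle form Cox6a2, and 1.92% of all genes. RvD6 samples 6 and 8 were nearest to vehicle, with the members at 96.7 and 94.1% of the vehicle mean in summed CPM, while samples 7, 9 and 10 held 73.3 to 76.9%. The summed level of neuron genes was lowest in samples 9 and 10, at 9316 and 10535 CPM, and the median log2 fold change of these 15 genes was -0.36 with RvD6 and -0.07 with RvD6si. Their part in the lower values was not tested. Both lipid comparisons share the 5 vehicle samples, so their likeness is no separate evidence.

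RvD6si is a stereoisomer of RvD6, so the molecules differ only in the arrangement of groups in space. Their preparations also differed: the paper pooled RvD6si from fractions of mouse tears and cornea media, while its RvD6 standard was a gift. Lipid and preparation cannot be told apart here. Both were given on the same schedule and compared on the same day, with the strength of the drops unknown. The median log2 difference over the members was -0.13 (RvD6si minus RvD6), against 0.00 over all genes. With the length trend removed it was -0.06. By edgeR 0 of 43 members were called, with p-values adjusted over all genes, and 0.235% of all genes were. An unadjusted p below 0.05 was found for 2 members, where 8.82% of all genes had it. They were Cycs, with a log2 difference of -0.30 ± 0.12 (95% interval -0.54 to -0.06, edgeR adjusted p = 0.436), and Atp5s, with 0.66 ± 0.26 (95% interval 0.11 to 1.21, adjusted p = 0.458). Among the 43 tested members the groups stood apart for Cycs in the lower direction and for 0 members in the higher direction, where 0.712% of all genes did. Cox6a2, which was under the filter, also stood apart and is described with the muscle forms. For Cox6b1 the interval of the difference was -0.52 to 0.12 on the log2 scale and for Cox5b -0.65 to 0.03. For Atp5b it was -0.15 to 0.40 and for Sdha -0.21 to 0.39. These intervals hold 0, and that of Cox5b also holds a difference as large as the one between RvD6si and vehicle, so equal levels under both lipids are not shown.

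The muscle forms of complex IV were few in reads and high in the samples with muscle genes. Cox6a2, under the filter on low counts, had 5, 0, 1, 7 and 9 reads in vehicle samples, 47, 8, 85, 94 and 9 in RvD6 samples and 0, 0, 2, 0 and 1 in RvD6si samples. Its highest values were in RvD6 samples 8 and 9, where the 15 skeletal muscle genes summed to 2401 and 3660 CPM, and of the other 3 RvD6 samples 2 lay within the vehicle range of 0 to 9 reads. DESeq2 called it higher with RvD6 than with vehicle (adjusted p = 0.00550) and lower with RvD6si than with RvD6 (adjusted p = 5.04e-05), the only member it called there, where 0.936% of all genes were. Cox8b had 6, 1, 11, 21 and 1 reads with RvD6, at most 4 with vehicle and at most 3 with RvD6si. Cox7a1, the only muscle form to pass the filter, had 16, 6, 11, 8 and 9 reads with vehicle, 18, 5, 15, 17 and 16 with RvD6 and 4, 10, 4, 6 and 9 with RvD6si. Its estimate was 0.87 ± 0.57 with RvD6 (edgeR adjusted p = 0.531) and -0.18 ± 0.58 with RvD6si (adjusted p = 0.918). Cox6a2 reached 10.4% of the summed TPM of Cox6a1 and Cox6a2 in the RvD6 group and at most 0.467% in vehicle.

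**Figure D5:**
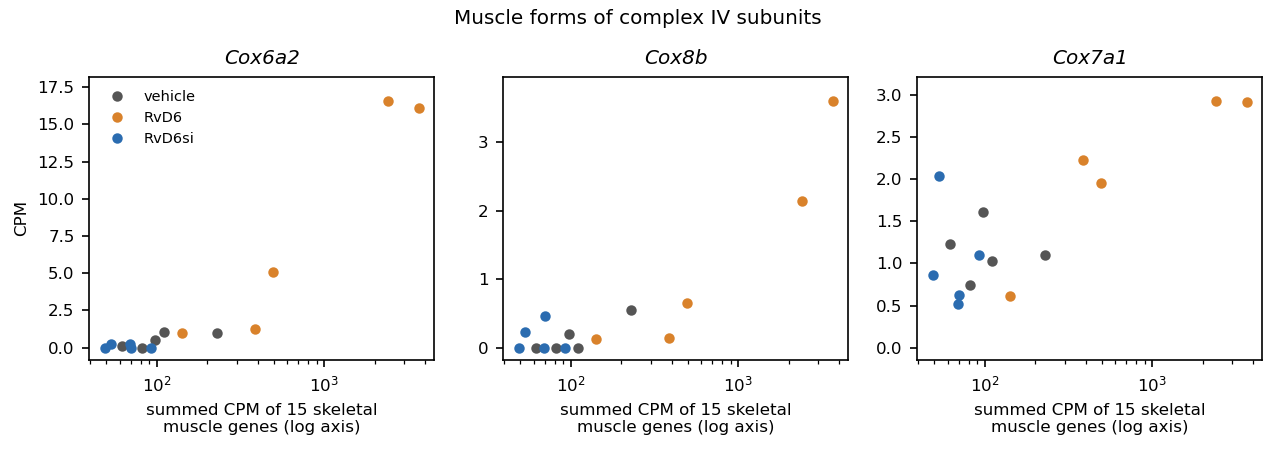
CPM of Cox6a2, Cox8b and Cox7a1 (y axis) against the summed CPM of 15 skeletal muscle genes (log x axis), one point per sample, coloured by treatment. The points of RvD6 samples 8 and 9, at 2401 and 3660 CPM of muscle genes, are the highest for all 3 forms.

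In the other pairs of forms the general form made up nearly all of the reads. Cox4i2, a form known from lung and other oxygen-sensing cells, had 0 to 7 reads per sample, and Cox4i1 made up at least 99.6% of the summed TPM of the pair in every sample. Cox6b2 and Cox7b2, forms of testis, had 1 to 17 and 0 to 15 reads. Cox8c had 0 reads in all 15 samples, which allows up to 0.302 to 0.680 CPM per library (3 counts, for counting error only). Cox7a2, the general partner of Cox7a1, had an estimate of -0.39 ± 0.19 with RvD6si, and Cox7a2l, which helps to join complexes III and IV, of -0.24 ± 0.15 (edgeR adjusted p = 0.335 and 0.461). Cox7b and Cox8a stood at -0.33 ± 0.25 and -0.45 ± 0.17 (edgeR adjusted p = 0.549 and 0.197). A second row for Atp5o, whose exons lie wholly within other genes, had 0 reads.

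The rest of the pathway is described by counts over gene lists, to be read beside the shares of all genes above. Complex I is the entry point for electrons from NADH, and its list was made by symbol alone (Ndufa, Ndufb, Ndufc, Ndufs and Ndufv, without Ndufaf). Whether each gene so listed, such as Ndufa4, is a subunit of complex I was not checked. Of the 37 tested genes with these symbols, 35 had an estimate below 0 with RvD6si, with a median of -0.39. An unadjusted p below 0.05 in that direction was found for 21, and 0 were called by edgeR. DESeq2 called 7, all lower, where it called 8.13% of all genes to which it gave an adjusted p. The list of assembly factors of complexes II to V also holds Atpif1, the inhibitor of ATP synthase. Of its 33 tested genes, 25 were below 0 with RvD6si, with a median of -0.17. DESeq2 called 3, Sdhaf2, Uqcc3 and Coa3, where it called 8.13% of all such genes. The 6 mitochondrially encoded subunits of these complexes had a median of -0.05 with RvD6si and 0.32 with RvD6, with 0 called by edgeR. Among them mt-Co1 and mt-Co3, of the catalytic core of complex IV, had estimates of -0.45 ± 0.18 and -0.35 ± 0.13 with RvD6si (edgeR adjusted p = 0.226 and 0.205). Between the lipids, DESeq2 called only mt-Co3 of these 6, lower with RvD6si than with RvD6, where it called 0.936% of all genes. The log2 difference of mt-Co3 was -0.59 ± 0.13 by edgeR (edgeR adjusted p = 0.0933, DESeq2 adjusted p = 0.00863). The 12 citrate cycle enzymes split evenly, with a median of -0.01 with RvD6si. Ogdh, a subunit of the oxoglutarate dehydrogenase complex, was the only 1 of these 12 that DESeq2 called (0.45 ± 0.13 by edgeR, DESeq2 adjusted p = 0.0154). A single call among 12 genes is near the 8.13% of all genes that it called. The 11 regulators of these genes, such as the coactivator Ppargc1a and the factors Nrf1 and Gabpa, had a median of 0.23 with RvD6si and 0 called by either tool.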

How the data were processed

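RNA of 15 right TG was amplified with poly(A) priming by an adapted Smart-seq2 method without strand information. The deposited values are raw read counts per gene, which the authors made by aligning reads to GRCm38 and counting them over GENCODE M22 genes with featureCounts of Subread 1.6.5 (1.5.0-p1 in the file header). Reads matching several places or several genes were not counted, which lowers genes with near-identical copies. Names came from GENCODE M21, which named 55480 of 55573 rows (99.8%).

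Counts were tested in R 4.3.3 with the quasi-likelihood test of edgeR 4.0.16 on all 15 samples, with TMM factors, a filter at a minimum count of 10 and Benjamini-Hochberg adjustment over the 16567 genes kept, called below 0.05. CPM are counts over TMM-scaled totals, and TPM also divide by exonic length. DESeq2 1.42.0, other filters and scalings, removal of trends on gene length or GC content (lowess span 0.3), a muscle score and leaving out each sample were the alternatives. The code was tested on simulated counts. Median depth was 7756538 reads. The labels do not say that samples are separate mice, so p-values measure the spread between these samples. Members and gene lists were chosen with earlier results of these data known. Members named with values were Cox6b1, Cox5b, those called by edgeR or DESeq2, those of most and fewest TPM in vehicle and of highest and lowest log2 fold change with RvD6si in each complex, and the alternative forms of complex IV. Uqcrq, Atp5a1, Atp5f1, Atp5g2 and Atp5g3 were named after their values were seen. Promoter sequences are from RefSeq on GRCm38.p6. Protein sequences were not used here.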

Additional observations from a re-analysis of the deposited data

Results flagged for a closer look

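In 3 of 72 groups of 5 samples examined for 24 named and tested members, 1 sample stood apart by Dixon's test, which chance does in about 1 in 20 groups. Atp5j had 99.1 CPM in RvD6 sample 7, the lowest of its group. Atp5l had 26.9 CPM in vehicle sample 1, the highest of its group. Cox7b had 274 CPM in vehicle sample 4, the highest of its group, and without that sample its log2 fold change with RvD6 was 0.16.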

How the results depend on the processing

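The median log2 fold change of the members stayed below 0 in every alternative run. With 1 sample left out it ran from -0.43 to -0.24 for RvD6si against vehicle, from -0.30 to -0.19 for RvD6 against vehicle and from -0.25 to -0.03 for RvD6si against RvD6. In the last of these it was -0.09 without RvD6 samples 8 and 9, an alternative chosen after seeing the data, and -0.08 with a muscle score. The number of members called, 0 by edgeR in each comparison, depended on the tool. For RvD6si against vehicle DESeq2 called 9 with all samples, 9 with both groups only and 9 with the length trend removed, a setting also chosen after seeing the data, which lost Cox5b, Uqcrh and Atp5o and gained Atp5f1, Atp5l and Sdhd. Removing the trend on length or on GC content gave 1 in edgeR, and leaving out 1 sample gave 0 to 1. Without RvD6si sample 11 edgeR called 0 of all genes and without RvD6si sample 12 it called 168, against 111. For RvD6 against vehicle DESeq2 called 1 with all samples, 4 with both groups only and 1 with the length trend removed. For RvD6si against RvD6 these counts were 1, 1 and 2, and edgeR without a filter called 1. Leaving out 1 sample gave 0 to 0 in both comparisons. For most of these alternative fits the share of all genes called is not given here. Changes in these counts are therefore no result about the members. The cause was not tested.

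The sign turned for estimates near 0. With the length trend removed in edgeR and in DESeq2, RvD6si against vehicle was 0.014 and 0.015 for Cox6a1, 0.047 and 0.035 for Cox7a1 and -0.054 and -0.054 for Sdha, and with a muscle score Cox7a1 was 0.0071. RvD6 against vehicle was 0.018 and 0.018 for Cox7a2, 0.031 and 0.031 for Cox7b and 0.00046 and 0.00010 for Sdhb. Leaving out 1 sample, Cox7b with RvD6 ran from -0.32 to 0.16, Sdha with RvD6 from -0.11 to 0.013 and Sdha with RvD6si from -0.058 to 0.12. No paired analysis was possible because each replicate number belongs to a single group. Levels of members with few reads, such as Cox8b with 0 to 21 per sample, are limited by counting error.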

Other observations

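Gm10053, an annotated protein-coding copy of Cycs, averaged 225 CPM in vehicle, 189 in RvD6 and 154 in RvD6si samples, with a log2 fold change with RvD6si of -0.54 ± 0.13 (SE, edgeR adjusted p = 0.0547, DESeq2 adjusted p = 0.000812). Of the 50 members, 27 share no 75-base word with another gene, among them Cox6b1, Atp5c1, Atp5s and Sdhd. The rule's symbols also matched 8 processed pseudogenes, which are no members. Of these Atp5c1-ps averaged 27.0, 19.9 and 19.8 CPM in vehicle, RvD6 and RvD6si samples. Usmg5, a small subunit of ATP synthase, and Atpif1, its inhibitor, do not carry an Atp5 symbol in the annotation used, and their log2 fold changes with RvD6si were -0.45 and -0.51 (edgeR adjusted p = 0.344 and 0.187).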
